A study of Mus musculus with 2 samples.

Results

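The nuclear envelope genes described here are *Syne1*, *Syne2*, *Sun1*, *Sun2*, *Lmna*, *Tmpo* and *Lbr*, chosen by name as 7 of the 22380 protein-coding genes in the GENCODE annotation of the mouse genome build mm9. They were followed in a HITS-CLIP experiment on Mbnl2 in quadriceps muscle. In HITS-CLIP, ultraviolet light binds a protein covalently to RNA in the tissue, RNase A shortens the RNA, an antibody pulls the protein down, and the RNA pieces that remain on it, called tags, are sequenced. Both groups were 15 to 16 weeks old. WT animals carried intact *Mbnl1*, and *Mbnl1* KO animals were homozygous for the ΔE3 allele of *Mbnl1*, whose product belongs to the same RNA-binding family as Mbnl2. *Mbnl2* itself was intact in both. C57BL/6 is the strain in the labels, and for the compound knockouts the methods give C57BL/129. The 3 mice of a genotype were merged into 1 table, and libraries made with 38.6 or 0.0386 U/ml RNase A were not told apart. The spread between mice was therefore not measurable and no test between genotypes was made.

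These genes encode the bridge between the cytoskeleton and the nuclear lamina, and in muscle they hold nuclei in place under contraction. The nesprins (*Syne1*, *Syne2*) are giant spectrin-repeat proteins of the outer nuclear membrane whose KASH domain reaches between the membranes and binds the SUN proteins (*Sun1*, *Sun2*) of the inner membrane. SUN proteins contact the lamina, the filament meshwork made by lamins A and C (*Lmna*) and the B-type lamins. *Tmpo* encodes the LAP2 proteins, which carry a LEM domain and bind lamins and chromatin, and *Lbr* encodes the lamin B receptor, an inner membrane protein that tethers heterochromatin. Mbnl proteins bind pre-mRNA introns near regulated exons and mRNA 3'UTRs, at a pyrimidine-GC-pyrimidine motif.

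The WT table held 343554 unique tags and the *Mbnl1* KO table held 476543. Among tags placed on assembled chromosomes, 44.0% in WT and 17.0% in *Mbnl1* KO matched reference sequence that was at least 70% a single base, and these are called single-base tags here. Because levels are given as tags per 1000000 tags of the table, ratios of genes and gene regions are also given with those tags left out of counts and totals. Intervals are exact, at 95%, and cover counting error only. They compare these merged tables, not the genotypes. RNA levels were not measured, so more RNA of a gene and more Mbnl2 per RNA cannot be told apart, nor can a change in cell types. Of the markers, 7 skeletal muscle genes summed to a level of 1045 in WT and 2596 in *Mbnl1* KO, while 3 fibroblast genes summed to 416 and 1251, 2 endothelial genes to 84.4 and 153, 3 brain genes to 20.4 and 25.2, 2 blood genes to 32.0 and 16.8, 1 adipocyte gene to 2.91 and 25.2, and 2 liver genes to 5.82 and 0, with *Apoa1* at 0 tags in both. These sums count all tags, and some hold genes that moved in opposite directions. Of the endothelial genes, *Pecam1* fell from 46.6 to 37.8 and *Cdh5* rose from 37.8 to 115. Of the brain genes, *Snap25* fell from 5.82 to 4.20, while *Gfap* rose from 0 to 2.10 and *Mbp* from 14.6 to 18.9. Without single-base tags the *Mbnl1* KO/WT ratio of *Mbp* was 0.689. The part of these shifts in the results was not tested. The *Mbnl1* gene itself held 100 WT and 452 *Mbnl1* KO tags of Mbnl2, which lie over the whole gene and do not check the deletion.

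Over the 7 genes, 64 WT tags and 215 *Mbnl1* KO tags lay on the gene's strand (sense tags). Scaled to the tables, this was a ratio of 2.42 (interval 1.82 to 3.25), and of 1.92 (1.41 to 2.66) with single-base tags left out. With tags of at least 2 reads that were not single-base it was 1.52, and the interval (0.999 to 2.39) then included 1. Tags were not spread alike over the genes. With the tables pooled, most tags of *Sun2*, *Lmna*, *Tmpo* and *Lbr* lay in 3'UTRs, and most tags of *Syne1*, *Syne2* and *Sun1* lay in introns. Per kb, and again pooled, 3'UTRs held more tags than introns in all 7 genes, by 85.6 times in *Sun2* (interval 30.6 to 332), 85.3 in *Lmna* (39.8 to 203), 26.7 in *Lbr* (10.4 to 73.3), 9.75 in *Syne1* (3.06 to 24.0), 7.71 in *Syne2* (0.190 to 45.6, from a single 3'UTR tag), 7.20 in *Sun1* (2.03 to 21.2) and 6.47 in *Tmpo* (2.50 to 17.4). By this measure *Tmpo* was not apart from the nesprins and *Sun1*. In the introns of the nesprins, the strand opposite the gene held nearly as many tags as the gene's own strand.

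*Lmna* held the largest number of tags outside the nesprins. The gene (ENSMUSG00000028063, chromosome 3 from 88285070 to 88313878, minus strand) had 9 tags in WT and 41 in *Mbnl1* KO, levels of 26.2 and 86.0, and a ratio of 3.28 (1.57 to 7.69). With single-base tags left out it had 7 and 37 tags and a ratio of 2.60 (1.14 to 6.91). With tags of at least 2 reads the ratio was 1.68 (0.679 to 4.98), and 1.31 (0.523 to 3.89) when single-base tags were also left out, so that both intervals included 1. Of its 50 tags, 32 (64.0%, interval 49.2 to 77.1) lay in 3'UTRs, which make up 3.55% of its length. That is 31.2 tags per kb of 3'UTR against 0.366 per kb of intron. *Lmna* makes lamin A and lamin C from different 3' ends, and the tags of these ends were counted apart. The 3'UTR of the lamin A transcript *Lmna-001* (88285070 to 88285998, 929 nt with the stop codon) held 5 WT and 27 *Mbnl1* KO tags. The 3'UTR of the lamin C transcript *Lmna-002* (88287127 to 88287221) held 0 tags in both tables, and so did the rest of its 209 nt last exon. It is only 95 nt long, so at the density of the lamin A 3'UTR, 34.4 tags per kb, few tags would fall there.

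Inside the lamin A 3'UTR the tags formed 3 clusters of at least 5 tags, a cluster being a run of overlapping tags on a strand pooled over both tables. The leading cluster, 332 to 380 nt after the stop codon, had 3 WT and 14 *Mbnl1* KO tags at 14 different positions. The next, 568 to 621 nt after the stop codon, had 1 and 8 tags, and the last, which ended 20 nt before the annotated end, had 0 and 5. Reads were uneven below these counts. In the second cluster a single tag carried 6325 of the 6928 *Mbnl1* KO reads, while in the leading cluster the deepest tag carried 180 reads. Coding exons of *Lmna* held 1 WT and 8 *Mbnl1* KO tags, among them 3 *Mbnl1* KO tags at a single position in exon 5. Introns held 3 and 6 tags, of which a group of 5 (1 WT, 4 *Mbnl1* KO) at 88295510 to 88295550 consisted of single-base tags.

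To show what the tags cover, the 30 nt at the highest pileup of the leading clusters are given for each gene with clusters of at least 5 tags, in the direction of the transcript and from the mm9 genome. Capitals mark the Mbnl motif, TGCT or its variants with C in place of T at the end (TGCC), at the start (CGCT) or at both (CGCC), searched on the gene's strand only, with overlapping copies allowed.
*Lmna*, lamin A 3'UTR, chr3:88285625-88285654, minus strand: gtccTGCTGCCttggctttaccctcatccc
*Lmna*, lamin A 3'UTR, chr3:88285387-88285416, minus strand: gtggattcccagaggcaaatcTGCCgTGCT
*Sun2*, 3'UTR, chr15:79555796-79555825, minus strand: cagcatctacccTGCTctgaaaataggtgc
*Sun2*, 3'UTR, chr15:79554850-79554879, minus strand: ttagactcaacggctggcccTGCTgtatta
*Lbr*, 3'UTR, chr1:183745757-183745786, minus strand: caggtcttccTGCTctgtagcttagagtgt
*Tmpo*, 3'UTR of *Tmpo-201*, chr10:90624410-90624439, minus strand: ttgaagctccgtaggtcacatctgtcttac
*Syne1*, intron, chr10:5126297-5126326, plus strand: attacctggagattccctggagattagcgc
Of these 7 windows, 5 (71.4%) held the motif: both of *Lmna*, both of *Sun2* and the one of *Lbr*. The windows of *Tmpo* and *Syne1* did not hold these letters. Of the 7331 pooled clusters of at least 5 tags in protein-coding genes, 49.9% held it in the same 30 nt, and 66.6% of the 5370 that were not mostly single-base tags did. Of 717 tiles of 30 nt from the annotated 3'UTRs of the 7 genes, 30.8% held it. These 3'UTRs come to 14623 nt, too few for 717 separate tiles, so some sequence was counted more than once. The share among the 7 windows is a description of a handful of sites.

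*Sun2*, which anchors nesprins at the inner membrane, had the most tags of the set per kb of whole gene, though not per kb of 3'UTR. The gene (ENSMUSG00000042524, chromosome 15 from 79554500 to 79572966, minus strand) held 10 WT and 31 *Mbnl1* KO tags, levels of 29.1 and 65.1, and none of them was a single-base tag. The ratio was 2.23 (1.07 to 5.11) on all tags of the tables and 1.53 (0.729 to 3.49) when single-base tags were left out of the totals, so that the interval then included 1. With tags of at least 2 reads it was 1.12 (0.487 to 2.88), and with both filters it was below 1 at 0.940 (0.409 to 2.42). In the 3'UTR lay 35 of 41 tags (85.4%, interval 70.8 to 94.4), 6 WT and 29 *Mbnl1* KO. In WT this was 60.0% of the tags (26.2 to 87.8) and in *Mbnl1* KO 93.5% (78.6 to 99.2). The 3'UTR held 25.4 tags per kb, below the 31.2 of *Lmna*, and the introns 0.296.

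The *Sun2* 3'UTR carried 5 clusters of at least 5 tags, and each had tags of both genotypes. They lay 44 to 90, 101 to 136, 617 to 658, 842 to 908 and 970 to 1025 nt after the stop codon, in a 3'UTR of 1377 nt. Their WT and *Mbnl1* KO tags numbered 1 and 7, 2 and 5, 1 and 4, 1 and 5, and 1 and 7. No cluster held more than 8 tags, so *Sun2* was covered at several places, whereas 17 of the 32 3'UTR tags of *Lmna* lay at a single place. Introns of *Sun2* held 3 WT tags and 1 *Mbnl1* KO tag. A further 2 WT tags and 1 *Mbnl1* KO tag lay in the 500 nt after its annotated end and are not counted.

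*Sun1*, the other SUN gene of muscle, was sparsely covered. It (ENSMUSG00000036817, chromosome 5 from 139676591 to 139725794, plus strand) held 3 WT and 16 *Mbnl1* KO tags, levels of 8.73 and 33.6, and the WT level equals the 3 tags taken as the detection floor. The ratio was 3.84 (1.10 to 20.6), and 3.69 (0.858 to 33.3) without single-base tags, and it fell to 1.12 (0.200 to 11.3) with tags of at least 2 reads. With both filters it was 1.88 (0.228 to 86.5). Introns held 14 of its 19 tags and the 3'UTR 5, all 5 from *Mbnl1* KO. The largest gathering of intronic tags followed exon 10 of 23 in *Sun1-001* (139709425 to 139709523). There, 1 WT and 4 *Mbnl1* KO tags began 33 to 104 nt after the exon, with 1 WT and 1 *Mbnl1* KO tag at the same position. No cluster of *Sun1* reached 5 tags. The sites below were therefore chosen after their tags were seen, as the pile in this gathering and the largest piles of the 3'UTR, each with 2 *Mbnl1* KO tags. The motif was in the intronic site and in neither 3'UTR site.
*Sun1*, intron after exon 10, chr5:139709592-139709621, plus strand: aggctggagcttccTGCCaggtcctcactg
*Sun1*, 3'UTR, chr5:139725351-139725380, plus strand: cattggttagacagccttggcagaatacaa
*Sun1*, 3'UTR, chr5:139725611-139725640, plus strand: ttaaagatgcaagataggactttgtgcaat

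*Lbr* had the highest ratio of the 7 when all tags were counted, with few tags behind it. The gene (ENSMUSG00000004880, chromosome 1 from 183745447 to 183772532, minus strand) held 3 WT and 21 *Mbnl1* KO tags, levels of 8.73 and 44.1, a ratio of 5.05 (1.51 to 26.4). None was a single-base tag, and with the totals changed accordingly the ratio was 3.44 (1.03 to 18.0), next to 3.69 in *Sun1*. With tags of at least 2 reads it was 2.61 (0.600 to 23.7), below the 4.35 of *Syne1*, and 2.19 (0.504 to 19.9) when single-base tags were also left out. The 3'UTR held 14 of the 24 tags (58.3%, interval 36.6 to 77.9), 2 WT and 12 *Mbnl1* KO. Of these, 10 *Mbnl1* KO tags lay in a cluster of 35 nt, 1203 to 1237 nt after the stop codon, which had 0 WT tags. Its 10 tags lay at 5 positions and came from 199 reads. The 2 WT tags of the 3'UTR lay just beyond it, at 1260 to 1282 nt, where there was no *Mbnl1* KO tag. With so few WT tags the tables do not tell whether the position differed.

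*Tmpo* has a last exon of its own for the transcript *Tmpo-201*, which has the layout of the nucleoplasmic form LAP2α, while the membrane forms share another last exon. The gene (ENSMUSG00000019961, chromosome 10 from 90610316 to 90634759, minus strand) held 6 WT and 17 *Mbnl1* KO tags, levels of 17.5 and 35.7, none of them single-base, with a ratio of 2.04 (0.768 to 6.33) or 1.39 (0.524 to 4.32) without single-base tags in the totals. Both intervals included 1. The last exon of *Tmpo-201* (90623162 to 90626106, 2945 nt) held 3 WT and 9 *Mbnl1* KO tags, 4.07 per kb. The last exon shared by 4 transcripts of the membrane forms (90610316 to 90612503, 2188 nt) held 1 and 1, 0.914 per kb. In the 3'UTR of *Tmpo-201* a cluster 146 to 200 nt after the stop codon had 0 WT and 7 *Mbnl1* KO tags, and another at 424 to 455 nt had 2 and 1. Introns held 2 and 7 tags, of which 1 WT and 3 *Mbnl1* KO tags shared a position 107 nt upstream of exon 5 of a membrane-form transcript with 9 exons. A further 3 *Mbnl1* KO tags at 90632738 to 90632768 shared a position and carried 4093 reads.

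**Figure D1:**
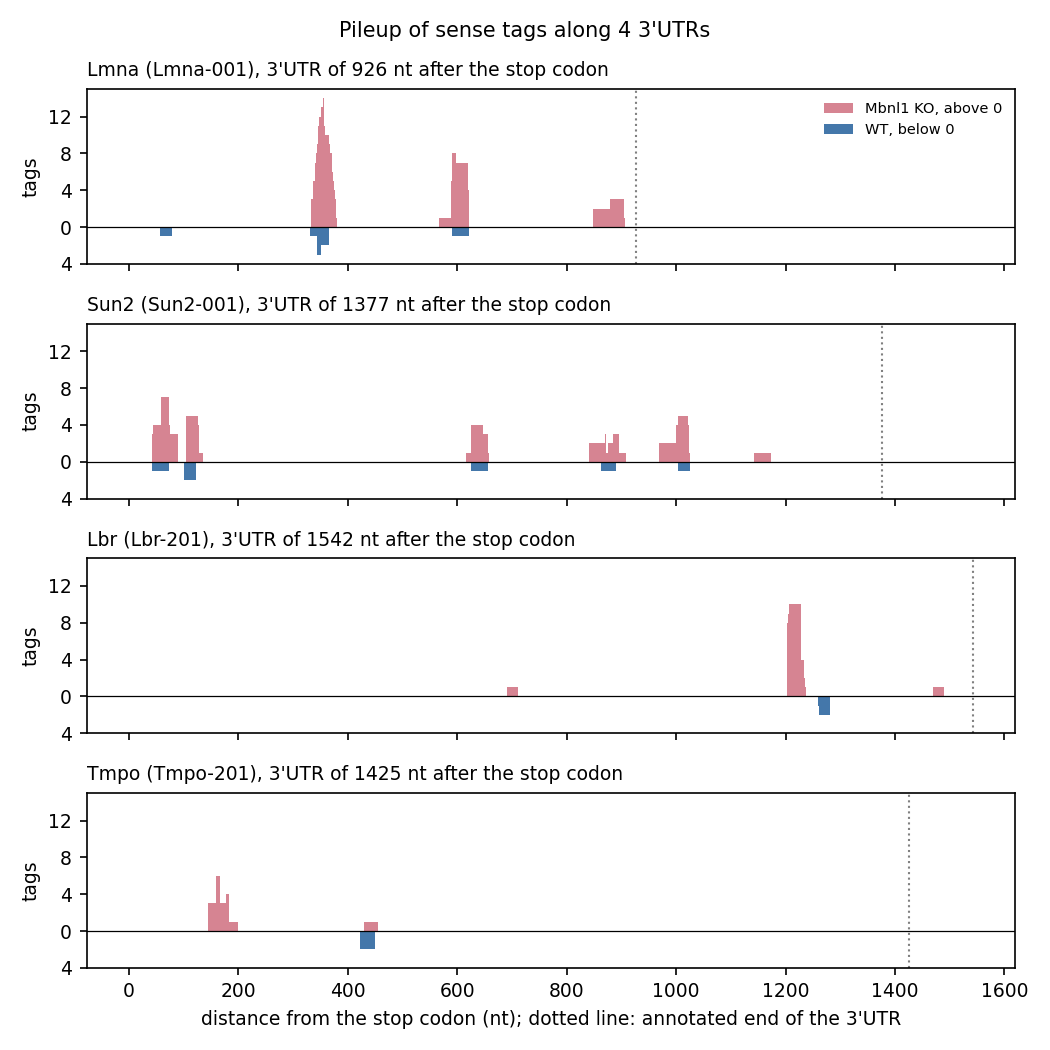
Number of overlapping sense tags (vertical axis, *Mbnl1* KO above 0 and WT below 0) against the distance from the stop codon in nt for the 3'UTRs of *Lmna-001*, *Sun2-001*, *Lbr-201* and *Tmpo-201*. The tags stand in narrow piles, the highest with 14 *Mbnl1* KO tags in *Lmna* and 10 in *Lbr*, and the 5 piles of *Sun2* with at least 5 tags in all hold tags of both genotypes.

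Tags of both tables covered 19.8% of the lamin A 3'UTR and 20.3% of the *Sun2* 3'UTR, against 6.42% in *Lbr* and 6.11% in *Tmpo-201*. Among the 3888 protein-coding genes with at least 20 sense tags over both tables, the median gene had 11.1% of its tags in 3'UTRs. *Sun2*, *Lmna*, *Lbr* and *Tmpo* stood at the 93.8, 84.1, 81.4 and 78.5 percentiles of that share, *Syne1* at the 43.3 and *Syne2* at the 31.9 percentile. *Sun1*, with 19 tags, was below the minimum and had 26.3% of its tags there.

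*Syne1*, which encodes nesprin-1, held the most tags and is the longest of the genes. It (ENSMUSG00000019769, chromosome 10 from 4795849 to 5326338, plus strand) had 18 WT and 60 *Mbnl1* KO tags, levels of 52.4 and 126, a ratio of 2.40 (1.40 to 4.33), and 12 and 56 tags with a ratio of 2.30 (1.22 to 4.71) without single-base tags. With tags of at least 2 reads, 3 in WT and 35 in *Mbnl1* KO, the ratio was 4.35 (1.37 to 22.1). It was 3.55 (1.12 to 18.1) when single-base tags were also left out. Per length *Syne1* was the thinnest of the set, with 0.147 tags per kb, near the 0.150 of *Syne2*, against 2.22 in *Sun2* and 1.74 in *Lmna*. Introns held 63 of the 78 tags (80.8%), coding exons 10 and 3'UTRs 5. The tags fell into 52 clusters, of which 36 were lone tags and 1 reached 5 tags. Of the clusters, 36 had *Mbnl1* KO tags only, 12 had WT tags only and 4 had both. A lone tag can lie in 1 table only, and lone tags made up 26 of the 36 and 10 of the 12. The same split over all genes is not given here.

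The cluster of 5 *Mbnl1* KO tags in *Syne1*, whose sequence is given with the leading sites, began 41 nt after exon 79 of a transcript with 144 exons (5126037 to 5126255). Its tags lay at 3 positions and had 16082 reads, of which a single tag carried 16030. The next cluster, 4 *Mbnl1* KO tags in the 3'UTR, 1666 to 1691 nt after the stop codon, had 13368 reads, of which a single tag carried 13342. These 2 tags made up 96.6% of the 30421 *Mbnl1* KO reads of the gene. Coding exon tags were at exon 72 (3 *Mbnl1* KO tags at a single position), exon 76 (3 *Mbnl1* KO), exon 102 (1 WT and 2 *Mbnl1* KO) and exon 10 (1 *Mbnl1* KO). The 48.9 kb at the 3' end that the short transcript *Syne1-204* spans, where the short KASH-bearing forms are encoded, held 1 WT and 9 *Mbnl1* KO tags, 0.205 per kb, against 17 and 51, 0.141 per kb, in the 482 kb before it. The site in the 3'UTR, chosen after its tags were seen for its read depth, held no form of the motif.
*Syne1*, 3'UTR, chr10:5326199-5326228, plus strand: aaaatcatggaaagctttatgtgaagaaaa

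*Syne2*, which encodes nesprin-2, was the gene in which the tables were nearest to each other. It (ENSMUSG00000063450, chromosome 12 from 76919121 to 77211913, plus strand) had 15 WT and 29 *Mbnl1* KO tags, levels of 43.7 and 60.9. The ratio was 1.39 (0.723 to 2.80), and 1.07 (0.519 to 2.32) from 12 and 26 tags without single-base tags. Neither interval excluded 1 or 2. Introns held 39 of the 44 tags (88.6%), coding exons 4 and the 3'UTR 1. Its tags fell into 36 clusters, 29 of them lone tags, and the largest had 3 *Mbnl1* KO tags at a single position 206 nt upstream of exon 59 of 115 in *Syne2-001* (77096884 to 77097006). Another position, 75 nt upstream of the last exon, had 1 WT and 1 *Mbnl1* KO tag. The largest cluster falls under the minimum of 5 tags and its site was chosen after it was seen, as the leading one of the gene.
*Syne2*, intron before exon 59, chr12:77096652-77096681, plus strand: gtgTGCCccccaCGCCtggcttccacagtg

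The opposite strand set the nesprins apart from 4 of the other genes. *Syne1* had 58 antisense tags (24 WT, 34 *Mbnl1* KO) beside its 78 sense tags, and *Syne2* had 45 (24 WT, 21 *Mbnl1* KO) beside 44. *Sun1* had 3, and *Sun2*, *Lmna*, *Tmpo* and *Lbr* had 0. Per length, the nesprins held 0.125 antisense tags per kb (0.102 to 0.152), while 0 tags over the 98.8 kb of those 4 genes have an exact upper bound of 0.0373 per kb. Of the 3888 genes, 6.02% had 0 antisense tags. The annotated genes that overlap the nesprins held 0 tags on their own strands. Over all protein-coding genes, 43.9% of the WT and 27.2% of the *Mbnl1* KO tags were antisense, beside 59.3% and 38.2% in the nesprins. In their introns, sense and antisense tags were 0.133 and 0.124 per kb, and 0.112 and 0.102 per kb without single-base tags, so the sense share was 51.8% (44.6 to 58.9) or 52.4% (44.5 to 60.3). By table, 38.7% (27.6 to 50.6) of the WT and 59.8% (50.6 to 68.6) of the *Mbnl1* KO intronic tags were sense. Antisense tags in the nesprins numbered 48 in WT and 55 in *Mbnl1* KO, a ratio of 0.826 (0.551 to 1.24), against 1.94 (1.29 to 2.99) for their sense tags. Without single-base tags these were 0.717 (0.457 to 1.14) for antisense and 1.68 (1.06 to 2.77) for sense tags. In the introns of the other 5 genes, sense tags stood at 0.364 per kb.

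**Figure D2:**
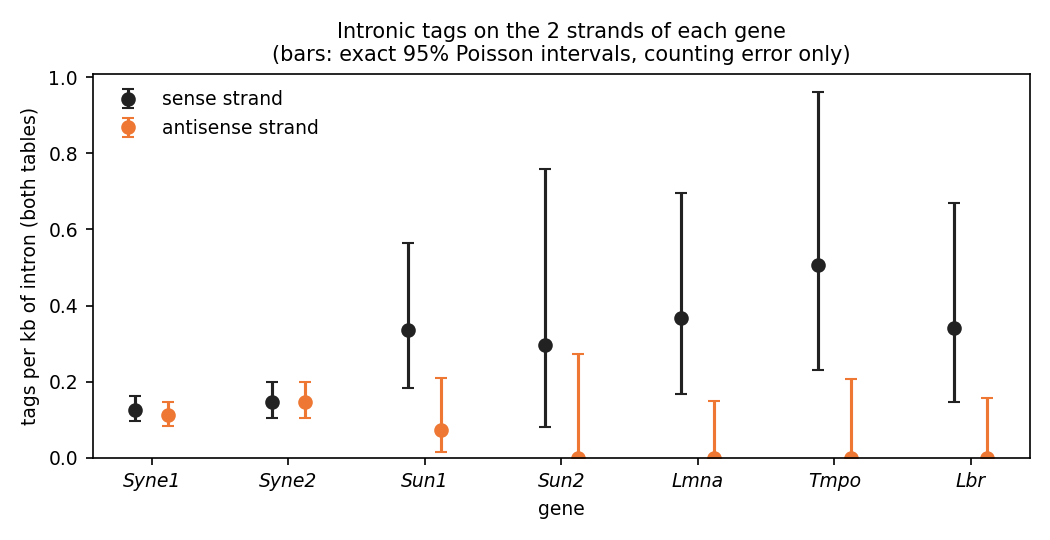
Tags per kb of intron on the sense and the antisense strand of each gene, both tables pooled, with exact 95% Poisson intervals. Sense and antisense values are close in *Syne1* and *Syne2*, the antisense strand of *Sun2*, *Lmna*, *Tmpo* and *Lbr* has 0 tags, and the intervals of the strands are apart in *Lmna* and *Tmpo* only. Without single-base tags *Lmna* keeps 3 intronic sense tags, 0.122 per kb (0.0252 to 0.357). Its antisense upper bound is 0.150, so its intervals then overlap.

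Motif content was read from the tags themselves. After single-base tags were left out and tags of a table at the same position were counted once, 78.1% (66.9 to 86.9) of the 73 3'UTR tags of the 7 genes held a form of the motif, 43.2% (31.8 to 55.3) of the 74 intronic sense tags of the nesprins did, and 26.9% (17.5 to 38.2) of their 78 antisense tags did. The intervals of the last 2 overlap, and no difference was tested. The 30 intronic tags of the other 5 genes held it in 66.7% (47.2 to 82.7), and the 20 coding exon tags of the 7 genes in 40.0% (19.1 to 63.9). By gene, all sense tags held it in 32.7% for *Syne1*, 53.3% for *Sun1*, 55.9% for *Syne2*, 57.1% for *Tmpo*, 75.8% for *Lmna*, 81.2% for *Lbr* and 83.9% for *Sun2*, so that *Syne2* stood beside *Sun1* and *Tmpo*. Median tag lengths were 26 nt in 3'UTRs, 21.5 nt in nesprin introns, 21 nt on the antisense strand and 24 nt in the other introns, and a longer tag has more room for a motif. Tags in a cluster overlap and share their sequence, so they are not independent.

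Tags near exons were counted because Mbnl proteins regulate splicing from flanking introns. Of the 146 intronic tags of the 7 genes, 35 (24.0%, interval 17.3 to 31.7) lay within 250 nt of an annotated exon, while such flanks make up 17.6% of the intron length. In *Syne1* it was 11 of 63 tags on 13.9% of the length and in *Syne2* 8 of 39 on 20.5%. In *Sun1* it was 7 of 14 tags on 25.2%, and in *Tmpo* 5 of 9 on 29.2%. It was 2 of 4 on 44.2% in *Sun2*, 1 of 9 on 18.3% in *Lmna* and 1 of 8 on 24.5% in *Lbr*. The intervals of *Syne1* (9.05 to 29.1), *Syne2* (9.30 to 36.5), *Sun1* (23.0 to 77.0), *Tmpo* (21.2 to 86.3), *Sun2* (6.76 to 93.2), *Lmna* (0.281 to 48.2) and *Lbr* (0.316 to 52.7) each include the share of length, as does that of the 7 genes together.

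**Figure D3:**
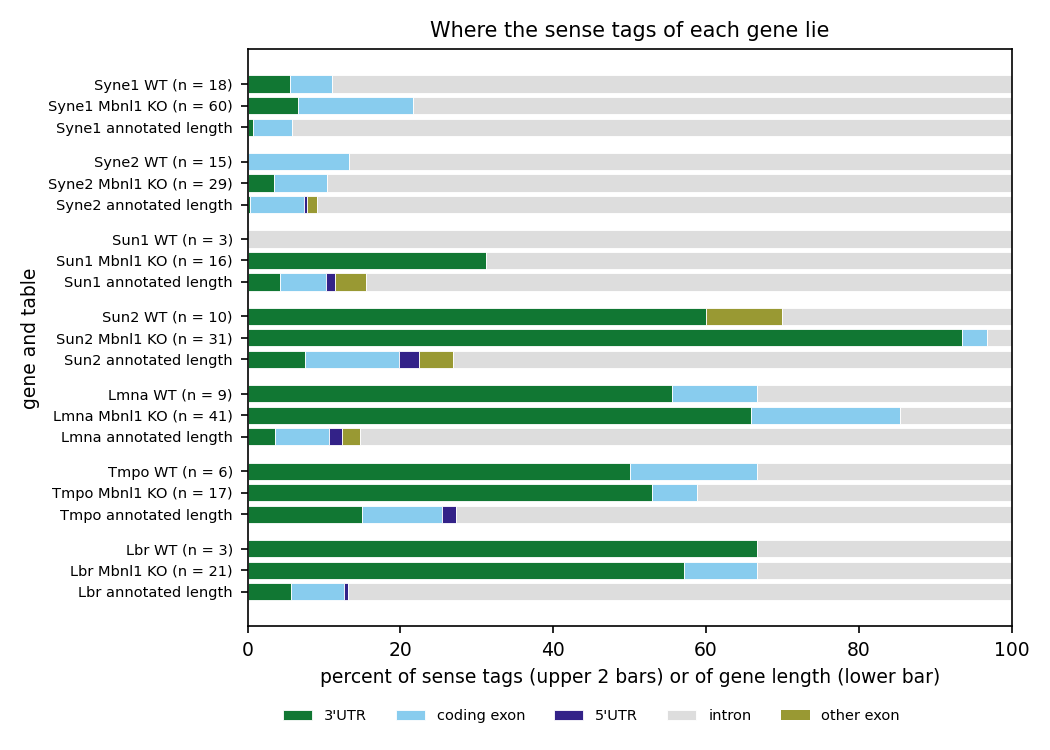
Percent of the sense tags of each gene in 3'UTRs, coding exons, 5'UTRs, other exons and introns, for WT and *Mbnl1* KO, with the number of tags, above the same split of the gene's annotated length. The 3'UTR share exceeds its share of length in *Sun2*, *Lmna*, *Tmpo*, *Lbr* and *Syne1* in both tables and in *Syne2* and *Sun1* in *Mbnl1* KO only, while introns hold most tags of *Syne1* and *Syne2*. The 3 WT tags of *Sun1* are all intronic.

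Across the 7 genes the 3'UTRs held 17 of 64 WT tags (26.6%, interval 16.3 to 39.1) and 87 of 215 *Mbnl1* KO tags (40.5%, 33.8 to 47.3). With single-base tags left out the shares were 32.7% (20.3 to 47.1) and 42.9% (36.0 to 50.0). With tags of at least 2 reads they were 44.8% (26.4 to 64.3) and 45.9% (37.3 to 54.7), and with both filters 48.1% (28.7 to 68.1) and 47.3% (38.5 to 56.2), so each table then lay within the interval of the other and WT was the higher with both filters. All protein-coding genes moved the same way, from 16.5% of sense tags in WT to 29.9% in *Mbnl1* KO. Coding exons of the 7 genes held 5 and 23 tags and introns 41 and 105. The ratio was 3.69 (2.18 to 6.62) in 3'UTRs, 3.32 (1.23 to 11.2) in coding exons and 1.85 (1.27 to 2.72) in introns. Without single-base tags it was 2.52 (1.49 to 4.52), 2.26 (0.841 to 7.62) and 1.58 (1.03 to 2.48), and the interval of coding exons then included 1. Over all protein-coding genes, with all tags counted, 3'UTRs held 14501 WT and 59010 *Mbnl1* KO tags. Coding exons held 5317 and 19754, and introns 66666 and 114903. There too the *Mbnl1* KO/WT ratio was highest in 3'UTRs and lowest in introns, so this order is not particular to the 7 genes. No sense tag lay in a 5'UTR of any of the 7.

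**Figure D4:**
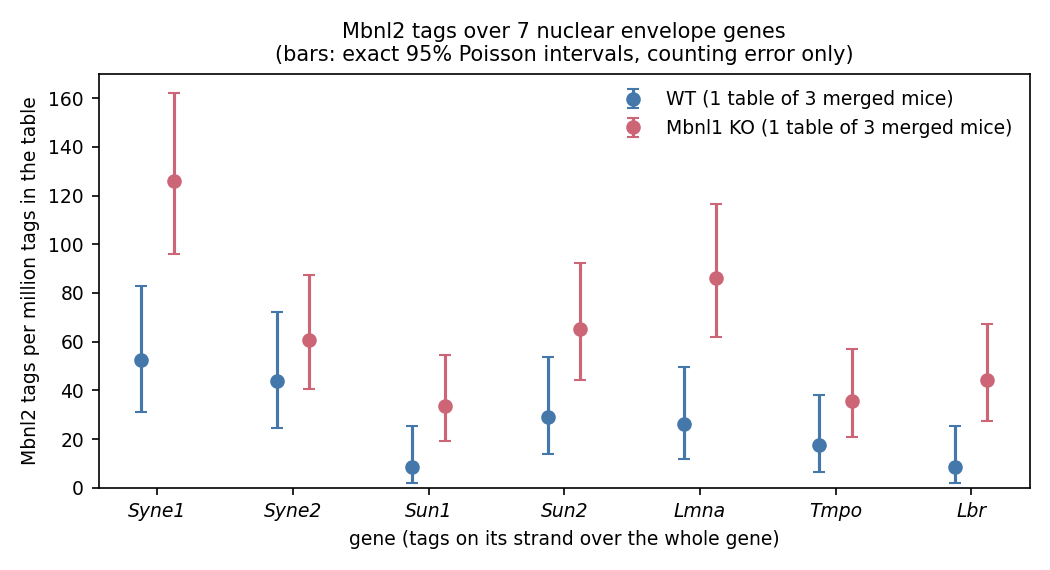
Sense tags per 1000000 tags of the table for each gene in WT and *Mbnl1* KO (1 merged table each), with exact 95% Poisson intervals; genes differ in length, so levels compare tables and not genes. With all tags counted, each of the 7 genes is higher in *Mbnl1* KO, and the intervals of the tables are apart in *Syne1*, *Lmna* and *Lbr* only.

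The comparison of *Mbnl1* KO with WT asks whether Mbnl2 tags at these genes differ when Mbnl1 is absent. All 7 genes had a ratio above 1, from 1.39 in *Syne2* to 5.05 in *Lbr*, with a median of 2.40, or 2.30 without single-base tags, and only *Sun2* fell below 1 under an alternative (0.940, from tags of at least 2 reads that were not single-base). The background was shifted in the same direction: of the 3888 genes with at least 20 sense tags the median ratio was 1.75, and 79.9% had a ratio above 1. Of the 6 members with that many tags, 5 had a ratio of at least 2 (*Lbr*, *Lmna*, *Syne1*, *Sun2* and *Tmpo*), as did 41.6% of all genes. In 4 members (*Lbr*, *Lmna*, *Syne1* and *Sun2*) the interval lay above 1, as in 38.6% of all genes. With single-base tags left out, 3307 genes had at least 20 tags and a median ratio of 1.48. Then 3 of the 6 members (*Lbr*, *Lmna* and *Syne1*) had a ratio of at least 2, against 29.1% of genes, and the same 3 had an interval above 1, against 26.5%. The interval of the sum over the 7 genes, 1.82 to 3.25, lay above the background median of 1.75, while without single-base tags its interval, 1.41 to 2.66, included the median of 1.48. The interval of no single member excluded the background median on either scale, and none of the 7 is shown to differ from the general shift.

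**Figure D5:**
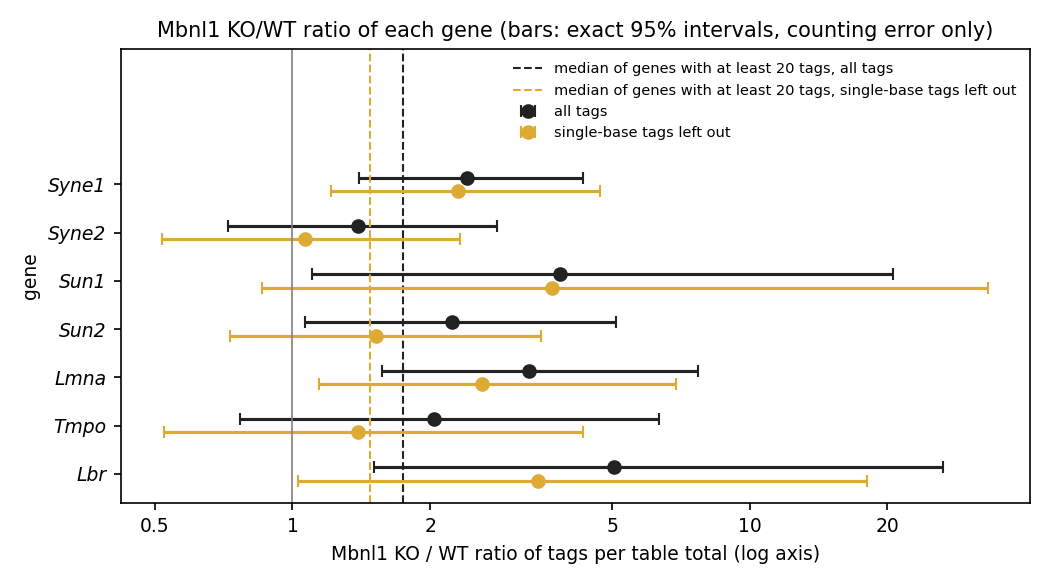
*Mbnl1* KO/WT ratio of tags per table total for each gene on a log axis, once with every tag and once without single-base tags, with exact 95% intervals. Dashed lines mark the medians of all genes with at least 20 tags, 1.75 and 1.48, which lie inside the interval of each gene.

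Part of the *Mbnl1* KO counts came from tags at the same position. Of the 60 *Mbnl1* KO tags of *Syne1*, 22 shared start and end with another tag of that table, as did 19 of 41 in *Lmna*, 16 of 31 in *Sun2*, 14 of 21 in *Lbr*, 12 of 17 in *Tmpo*, 7 of 29 in *Syne2* and 4 of 16 in *Sun1*. In WT it was 2 of 10 tags in *Sun2*, 2 of 6 in *Tmpo* and 0 in the other 5 genes. Counting each position once, the summed ratio was 2.01 (1.49 to 2.74) and the background median 1.56. The *Mbnl1* KO table also rested on more reads, 50329234 against 5176203. In *Syne1* 15 of 18 WT tags and 25 of 60 *Mbnl1* KO tags had 1 read, and in *Lmna* 3 of 9 and 14 of 41.

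Other genes of the nuclear envelope were read in 5 lists of 35 genes, of which 33 were matched by symbol (*Syne3* and *Syne4* were not) and 16 had at least 20 sense tags. Of these 16, 12 had a ratio of at least 2, 0 had a ratio of 0.5 or lower, and 10 had an interval above 1, beside 41.6%, 3.76% and 38.6% of all genes in that order. Their median ratio was 2.66, beside the background of 1.75. Without single-base tags 7 of the 16 had a ratio of at least 2 (29.1% of all genes) and 4 had an interval above 1 (26.5% of all genes), so that the latter count was near the background.

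Values of these genes are given with all tags and then, after "and", without single-base tags. Among the partners of lamins, *Tmem201*, which encodes the inner membrane protein Samp1, had 13 tags in WT and 52 in *Mbnl1* KO, with a ratio of 2.88 (1.55 to 5.77) and 1.97 (1.06 to 3.94). *Tor1aip1*, which encodes the lamin-binding protein LAP1, had 7 and 29 tags, with 2.99 (1.28 to 8.08) and 2.36 (0.883 to 7.92). *Tor1aip2*, whose product activates torsins, had 8 and 26, with 2.34 (1.03 to 5.99) and 1.60 (0.703 to 4.09). *Lemd3*, a LEM-domain gene, had 11 and 31, with 2.03 (0.994 to 4.48) and 1.77 (0.634 to 6.10). A ratio of at least 2 was thus found in all 4 with all tags and in 1, *Tor1aip1*, without single-base tags, and only *Tmem201* kept its interval above 1. The B-type lamins were nearly bare, with 3 and 9 tags for *Lmnb1* and 1 and 1 for *Lmnb2*, and emerin (*Emd*) had 7 and 11. The other SUN genes had 3 and 18 tags in *Sun5*, with 4.33 (1.26 to 22.9) and 2.95 (0.862 to 15.6), 0 and 4 in *Sun3* and 0 in *Spag4*.

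The lamin-processing genes had ratios on both sides of 1. *Fnta*, the shared α subunit of the farnesyltransferase that modifies prelamin A, had 2 and 27 tags, with 9.73 (2.45 to 84.5) and 12.8 (2.10 to 524). *Fntb*, its β subunit, had 26 and 23, with 0.638 (0.348 to 1.16) and 0.939 (0.433 to 2.16). *Zmpste24*, the prelamin A protease, had 5 and 19, with 2.74 (0.989 to 9.39) and 2.95 (0.862 to 15.6). Of the muscle envelope and pore membrane genes, *Pom121* had 7 and 25 tags, with 2.57 (1.08 to 7.05) and 1.76 (0.739 to 4.81). *Tmem38a*, a cation channel of muscle membranes, had 14 and 19, with 0.978 (0.465 to 2.11) and 0.668 (0.317 to 1.44).

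All 6 genes that link nesprins to microtubules or anchors had at least 20 tags. *Akap9*, a Golgi and centrosome scaffold, had 11 and 69 tags, with 4.52 (2.38 to 9.48) and 3.04 (1.60 to 6.38). *Kif5b*, the kinesin-1 heavy chain that moves muscle nuclei, had 11 and 46, with 3.01 (1.54 to 6.45) and 2.21 (1.10 to 4.93). *Pcm1*, a centriolar satellite protein, had 10 and 43, with 3.10 (1.53 to 6.92) and 2.02 (0.994 to 4.52). *Akap6*, which nesprin-1α recruits to the envelope, had 23 and 63, with 1.97 (1.21 to 3.34) and 1.53 (0.898 to 2.71). *Klc1*, a kinesin light chain, had 6 and 19, with 2.28 (0.877 to 6.98) and 1.87 (0.675 to 6.41), and *Pcnt*, pericentrin, had 9 and 24, with 1.92 (0.863 to 4.70) and 1.55 (0.638 to 4.29). *Akap9* and *Kif5b* thus had intervals above 1 on both scales, and *Pcm1* and *Akap6* with all tags only.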

How the data were processed

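Mbnl2 HITS-CLIP tags (monoclonal antibody 3B4) of quadriceps from 3 WT and 3 *Mbnl1* KO mice were analysed, in 1 merged table per genotype. The authors aligned the reads to mm9 with BWA (version not given in the sources used here), removed likely PCR duplicates and pooled the animals of a genotype. Beside each tag the authors deposited a count, its number of reads, with no normalization. Tags were 18 to 33 nt long. Each row was counted as 1 tag.

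A tag was assigned to a gene when it overlapped it on its strand (GENCODE vM1, mm9), and to 3'UTR, coding exon, 5'UTR, other exon or intron, in that order. Ratios were scaled by the tags of each table, with the 95% Clopper-Pearson interval of the *Mbnl1* KO share; levels have exact Poisson intervals. Both cover counting error only, and PCR copies are not independent molecules. With 1 table per genotype no test was run and no p-value computed. A gene counted as called at a ratio of at least 2, among genes with at least 20 tags. Depth limits single genes: 1 tag is a level of 2.91 per 1000000 tags in WT and 2.10 in *Mbnl1* KO, and 3 tags, taken as the floor, are 8.73 and 6.30. Python 3.11.15, numpy 2.4.6, pandas 2.3.3, scipy 1.17.1 and matplotlib 3.10.9 were used. Intervals were tested on simulated independent counts, which hold no PCR copies. Counting was checked by a direct count of sampled genes in the real tags.

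The genes named are the 7 members, their 2 leading clusters of at least 5 tags with the 30 nt at the highest pileup, the last exons of *Lmna* and *Tmpo*, and listed genes with at least 20 tags; other listed genes, marked sites and exon positions were chosen after their values were seen. The members and lists were chosen with earlier results of these data known. Alternatives were raw tags, totals without chromosome M and without the 100 largest clusters, leaving out single-base tags, tags of at least 2 reads, both together, collapsing tags by position or 5′ end, counting by midpoint and coding exon before 3'UTR. The background median under these was added after the data were seen.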

Additional observations from a re-analysis of the deposited data

How the results depend on the processing

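The summed *Mbnl1* KO/WT ratio of the 7 genes stayed above 1 under all 8 alternatives, from 1.52 to 3.36, and its interval lay above 1 in 7 of them. It left the interval given in the report with raw tags (3.36), with tags of at least 2 reads (1.74) and with both that filter and no single-base tags (1.52, interval 0.999 to 2.39). The background median ran from 1.33 to 2.42 under the same alternatives. The 3'UTR share moved with tags of at least 2 reads to 44.8% in WT, with both filters to 48.1% in WT, and with a common 5′ end collapsed to 32.2% in *Mbnl1* KO; the *Mbnl1* KO share was 45.9% and 47.3% under the first 2 of these, so that with both filters the WT share was the higher. *Sun2* turned below 1 with both filters (0.940, interval 0.409 to 2.42). Under that setting *Lmna* was 1.31, and with at least 2 reads *Syne1* was 4.35. The causes were not tested. No paired analysis was possible because the mice of a genotype are merged in 1 table, and for that reason no replicate could be left out. With at least 2 reads *Sun1* was 1.12 and *Lbr* 2.61, and with both filters they were 1.88 and 2.19. *Lbr* and *Sun1* rest on 3 WT tags each.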
